A study of Rattus norvegicus with 44 samples.

Results

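The 30 genes described here encode enzymes and regulators of cholesterol and fatty acid synthesis, and they were taken by symbol from the FPKM table of kidneys of obese ZSF1 rats. They comprise 15 enzymes of the mevalonate and sterol pathway, 5 regulators of the SREBP transcription factors or of sterol transport, 5 enzymes of fatty acid synthesis, and 5 desaturases and elongases. All 30 were among the 32883 entries of the table, and 29 of them were among the 13482 genes tested, those whose FPKM exceeded 1 in 9 or more animals. The ZSF1 obese rat is a hybrid strain with obesity, diabetes and kidney disease. Each of the 44 male animals gave 1 kidney library, and all carried a telemetry device and were fed their drug in chow for 6 months from 22 weeks of age. Vehicle was given to 11 animals. Enalapril, an inhibitor of angiotensin-converting enzyme, was given to 9 animals at 3 mg/kg/day. Compound 1, a stimulator of soluble guanylate cyclase, was given to 12 animals at 1 and later 3 mg/kg/day. The combination, given to 12 animals, held Enalapril at 3 mg/kg/day and Compound 1 at 1 mg/kg/day, so the dose of Compound 1 differed between its groups. No lean animals were analysed here, and the values are of whole kidney tissue.

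Cholesterol is built from acetyl-CoA through mevalonate, isoprenoid diphosphates, squalene and lanosterol, and fatty acids are built from the same precursor by acetyl-CoA carboxylase and fatty acid synthase before desaturases and elongases modify them. Transcription of both pathways is driven by SREBP-2 and SREBP-1, which are held in the endoplasmic reticulum by Scap and the Insig proteins when sterols are plentiful and are released to the nucleus when they are scarce. In the kidney, the proximal tubule takes up fatty acids as fuel, and lipid accumulates in the kidneys of obese and diabetic animals.

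The sum of FPKM was between 628001 and 769016 per library, and 12490 to 13407 genes had an FPKM above 1. The absolute depth of the libraries is unknown, because FPKM carry no read totals. All 8 proximal tubule markers checked passed the filter, and their summed FPKM was between 1253 and 3198 in every animal. The median of all tested genes lay at a log2 fold change from Vehicle of -0.15 with Enalapril and -0.18 with the combination, and of -0.07 with Compound 1.

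Upstream sequences of the members were searched for letters known to bind regulators of these pathways. The promoter table of RefSeq (build GRCr8) matched 23 of the 30 members, with 24 starts because Srebf1 has more than one. In the 250 bases upstream of the start, on either strand, the NF-Y box CCAAT stood in 19 of 24 (79.2%), against 34% of all 33469 rat promoters of the table and 34.8% of the 10771 promoters of tested genes. The GC box GGGCGG stood in 18 of 24 (75%), against 30.5% of all promoters and 57% of those of tested genes. The E-box CACGTG stood in 3 of 24 (12.5%), against 5.59% and 7.76%. The sterol regulatory element in the form TCACNCCAC stood in 0 of 24, against 0.974%, which says only that these letters are not in these windows. No motif holds another, but TCACNCCAC and CACGTG can share letters at their ends. The first of the 4 sequences that follow is of Dhcr7, the member with the largest change from Vehicle among those past the adjusted p. The next are of 2 neighbouring desaturase genes that moved in opposite directions with the combination on FPKM as deposited (Fads1 and Fads2). The last is of Hmgcs1, cytosolic HMG-CoA synthase. All 4 run 5′ to 3′ on the strand of the gene up to the base before its start, and capitals mark CCAAT or its reverse complement.

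Dhcr7, chr1:208444184-208444433, plus strand: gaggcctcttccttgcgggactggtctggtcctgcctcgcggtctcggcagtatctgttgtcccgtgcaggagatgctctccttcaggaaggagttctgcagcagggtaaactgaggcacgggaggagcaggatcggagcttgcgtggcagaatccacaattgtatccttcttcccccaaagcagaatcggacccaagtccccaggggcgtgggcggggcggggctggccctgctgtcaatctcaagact

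Fads2, chr1:216172034-216172283, minus strand: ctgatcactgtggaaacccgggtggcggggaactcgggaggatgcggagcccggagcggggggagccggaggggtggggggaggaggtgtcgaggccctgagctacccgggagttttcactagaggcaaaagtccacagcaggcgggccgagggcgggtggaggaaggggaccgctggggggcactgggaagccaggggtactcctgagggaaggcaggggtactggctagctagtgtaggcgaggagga

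Fads1, chr1:216252442-216252691, plus strand: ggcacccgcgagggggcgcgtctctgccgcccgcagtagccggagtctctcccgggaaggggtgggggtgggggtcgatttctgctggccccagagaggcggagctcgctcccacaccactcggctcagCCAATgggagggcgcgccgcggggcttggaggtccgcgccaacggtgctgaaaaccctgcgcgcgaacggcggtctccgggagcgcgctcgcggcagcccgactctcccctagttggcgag

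Hmgcs1, chr2:53382054-53382303, plus strand: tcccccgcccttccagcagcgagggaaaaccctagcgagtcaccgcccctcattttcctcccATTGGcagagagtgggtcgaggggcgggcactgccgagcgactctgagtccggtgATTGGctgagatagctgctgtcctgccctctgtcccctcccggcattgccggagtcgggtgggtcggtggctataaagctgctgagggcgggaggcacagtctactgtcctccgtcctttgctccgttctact

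The window of Hmgcs1 held 2 such boxes and that of Fads1 held 1. Neither Dhcr7 nor Fads2 held one, as was also true of Acat2, Me1 and Scd. Fads1 and Fads2 lie near each other on chromosome 1, on opposite strands.

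In Vehicle kidneys, the mean levels of the members lay between 0.433 and 47.4 FPKM, and their median (10.8 FPKM over the 29 tested) was close to that of all tested genes (10.01 FPKM). Fdps, farnesyl diphosphate synthase, which makes the branch-point isoprenoid of the sterol pathway, was the most abundant member at 47.4 ± 1.99 FPKM (SD, n = 11). Its lowest Vehicle animal was at 45.1 FPKM and its highest at 50.5 FPKM, above every animal of the next gene in order, Fads1. From Fads1, the delta-5 desaturase, at 27.8 ± 2.13 FPKM (SD, n = 11), down to Acaca at 2.83 ± 0.433 FPKM, each member overlapped its neighbour in the order, so that neighbours there cannot be ranked. The lowest means were those of Hsd17b7, a sterol 3-ketoreductase, at 0.910 ± 0.193 FPKM, Scd, a stearoyl-CoA desaturase, at 0.905 ± 0.519 FPKM, and Elovl6, an elongase of long saturated fatty acids, and in no Vehicle animal did Hsd17b7 reach the lowest level of the next gene up in order, Acaca. Elovl6 ran from 0 over a median of 0.337 to 1.17 FPKM in Vehicle, and it was listed at exactly 0 in 4 of the 44 animals, of which 2 were Vehicle, and above 0 but under 1e-10 FPKM in 8 more, of which 2 were Vehicle and 1 Enalapril.

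**Figure D1:**
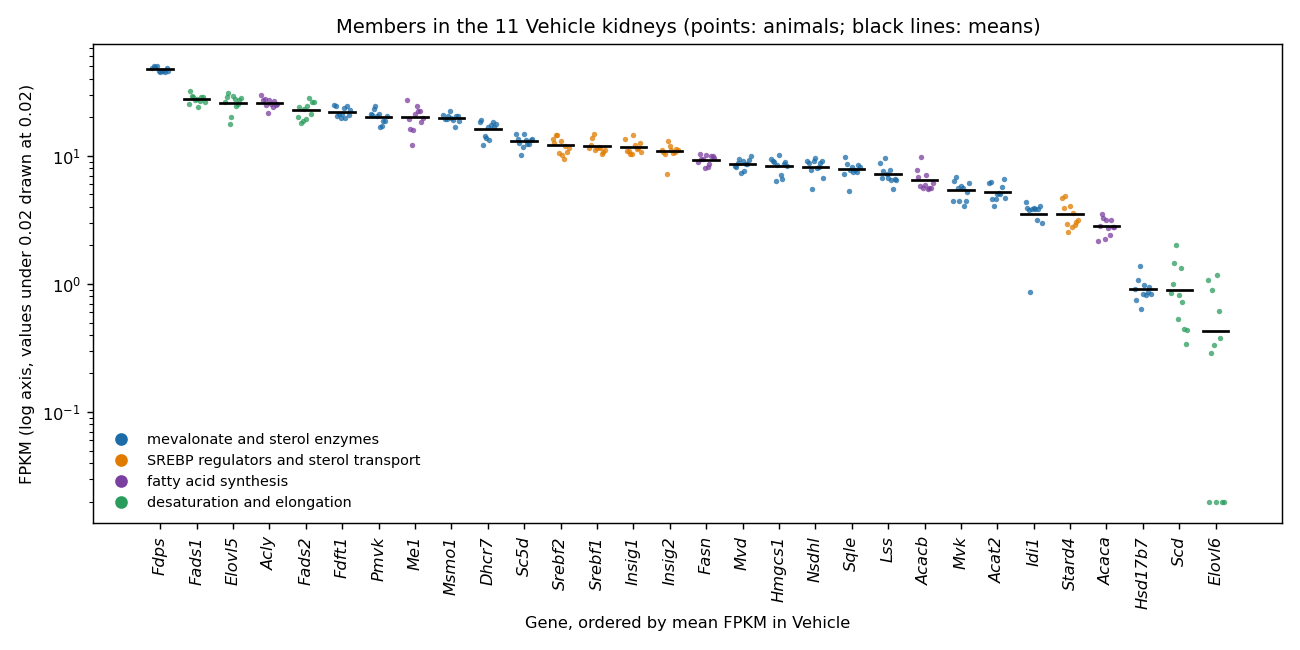
FPKM of the 30 members in each of the 11 Vehicle animals (points, log axis, coloured by branch of the pathway), ordered by mean (black lines), with values under 0.02 drawn at 0.02. Fdps stands above the others and Hsd17b7, Scd and Elovl6 have the lowest means, while most neighbours in the order overlap.

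The spread between animals differed more between members than between groups. The coefficient of variation of Fdps was 4.19% in Vehicle, the lowest of the members there, and that of Elovl6 was 103%, the highest. The median over the 29 tested members was 14.4% among Vehicle animals, 14.5% and 15.1% under Enalapril and Compound 1 alone and 14.6% under both, and over all tested genes it was 16%, 14.7%, 16.1% and 16.5% in the same order. A single Vehicle animal stood far below the others in Idi1, isopentenyl-diphosphate isomerase, at 0.867 FPKM, where the median was 3.85 FPKM.

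The comparisons with Vehicle ask whether each treatment changed these transcripts. By the thresholds of the study, which ask for an adjusted p under 0.05 and for a fold outside 0.66 to 1.5, limma called 0 of the 29 tested members in each of the 3 comparisons. Of all tested genes, 4.53% were called with Enalapril and 7.38% with the combination, against 0.2% with Compound 1. At an unadjusted p under 0.05 there were 13 members with Enalapril and 15 with the combination, against 4 with Compound 1. Of all tested genes, 42.8%, 53.4% and 13.3% passed at that threshold, so that the counts of members were near the background. The 95% interval of the fold change lay wholly between 0.66 and 1.5 for 27 members with Enalapril and for 27 with Compound 1, and for 26 with the combination, so that for most members larger changes lie outside the interval. The 3 comparisons share the same Vehicle animals.

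Smaller differences passed the adjusted p alone. With Enalapril, 8 of 29 members (27.6%) were lower and 0 were higher, where 26.6% of all tested genes were lower and 3.57% higher. The 8 became 3 without Vehicle animal 1003, a fit for which no count over all tested genes is given. With the mean level of the inner medulla markers as a covariate, the 8 became 1. Over all 13482 tested genes, the lower count fell from 3590 to 527 with that covariate. With the combination, 9 of 29 (31.0%) were lower and 3 (10.3%) were higher, where 39.3% of all tested genes were lower and 6.38% higher. With Compound 1 alone the count was 0 in both directions, and 0.475% of all tested genes passed. The share of members that were lower was near that of all genes with Enalapril and below it with the combination. The median log2 fold change of the members was -0.09 with Enalapril and -0.10 with the combination, against -0.04 with Compound 1, each nearer to 0 than that of all tested genes. In RNA of whole tissue, fewer cells of a type and less RNA per cell cannot be told apart.

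**Figure D2:**
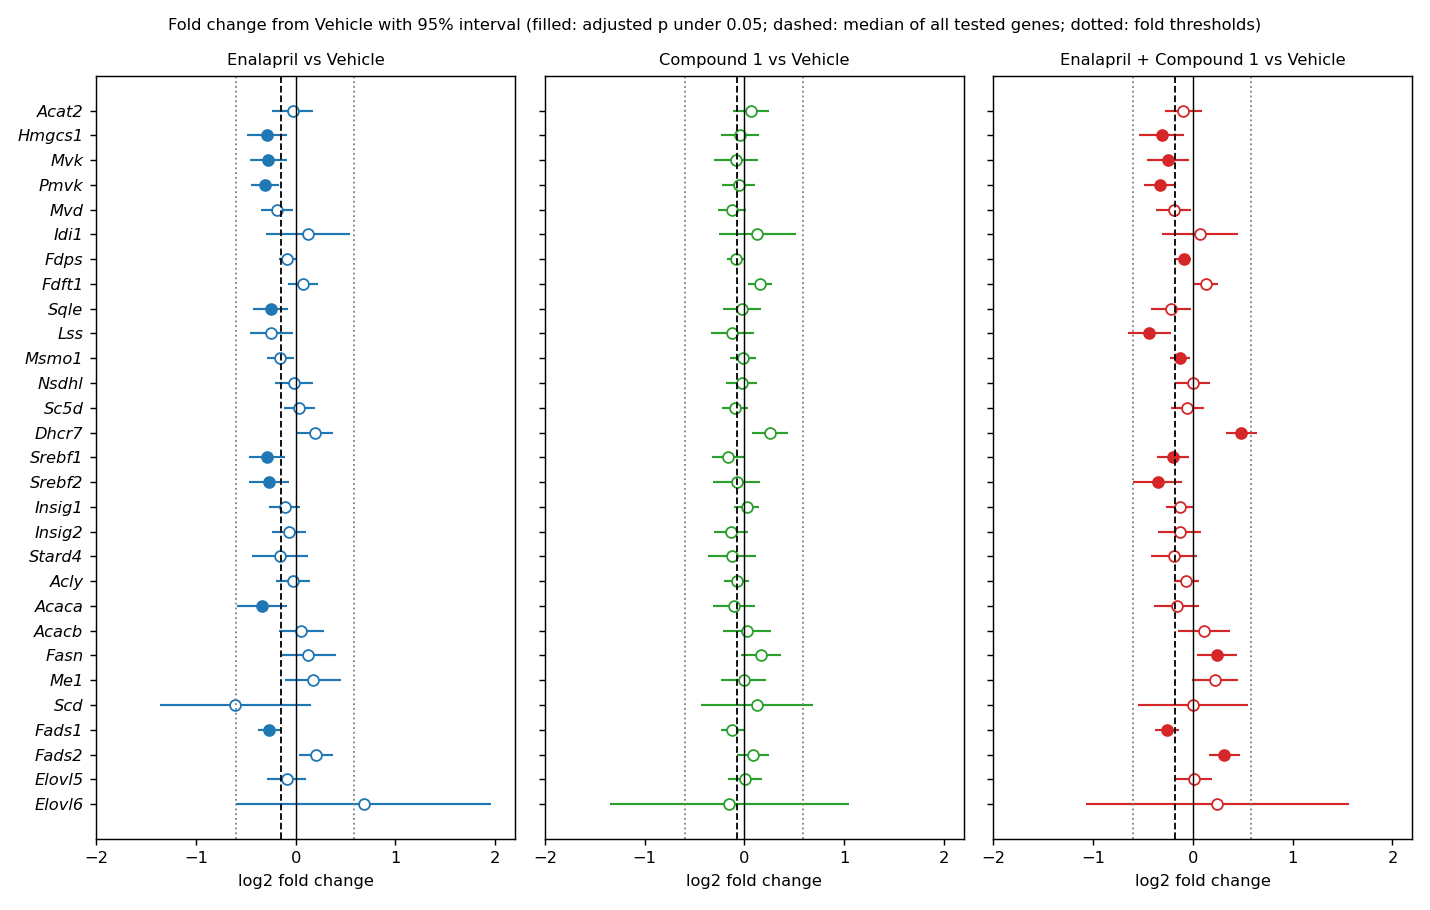
Log2 fold change from Vehicle with its 95% interval (horizontal lines) for the 29 tested members in each treatment, ordered by branch. Filled points passed an adjusted p of 0.05 in limma, the dashed line is the median of all tested genes and dotted lines mark folds of 0.66 and 1.5; no filled point lies beyond the dotted lines, and Dhcr7 with the combination is the farthest to the right of them.

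Among the enzymes of the mevalonate and sterol pathway, Dhcr7, 7-dehydrocholesterol reductase, which makes cholesterol in the last step of one route, was higher with the combination. Its levels ran from 12.2 over a median of 16.8 to 18.9 FPKM in Vehicle, from 15.6 over 18.0 to 23.8 FPKM with Enalapril, from 15.1 over 19.8 to 24.2 FPKM with Compound 1, and from 19.6 over 22.0 to 26.3 FPKM with the combination. All 12 combination animals were above all 11 Vehicle animals, while the single treatments overlapped Vehicle, with 4 of 9 Enalapril animals and 7 of 12 Compound 1 animals above every Vehicle animal. The share of all tested genes whose groups separate in this way was not counted. The group mean was 16.1 ± 2.32 FPKM (SD, n = 11) for Vehicle and 22.5 ± 2.201 FPKM (SD, n = 12) for the combination. The fold change was 1.40 with a 95% interval of 1.26 to 1.56, and the log2 change was 0.48 ± 0.07 (SE, limma, adjusted p = 4.41e-05). With Enalapril the log2 fold change of Dhcr7 was 0.19 ± 0.09 (SE, limma, adjusted p = 0.0991), and with Compound 1 it was 0.26 ± 0.09 (SE, limma, adjusted p = 0.204).

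Other enzymes of this branch were lower. Pmvk, phosphomevalonate kinase, ran from 16.9 over a median of 20.4 to 24.4 FPKM in Vehicle, from 14.8 over 15.7 to 18.3 FPKM with Enalapril, from 14.2 over 19.7 to 26.9 FPKM with Compound 1 and from 13.3 over 15.9 to 21.0 FPKM with the combination. Every Enalapril animal and 11 of 12 combination animals lay below the Vehicle median, but the ranges overlapped. Pmvk fell by 0.31 ± 0.07 with Enalapril (log2, SE, limma, adjusted p = 0.00293) and by 0.33 ± 0.08 with the combination (adjusted p = 0.00121).

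Lss, lanosterol synthase, which closes the sterol rings, ran from 5.54 over a median of 6.77 to 9.59 FPKM in Vehicle and from 4.21 over 4.89 to 9.07 FPKM with the combination. Of the 12 combination animals, 9 lay below every Vehicle animal, and 1 was near the top of the Vehicle range. Lss fell by 0.44 ± 0.11 with the combination (log2, SE, limma, adjusted p = 0.00218), the largest decrease among the members past the test there. With Enalapril (from 4.98 over 5.75 to 8.63 FPKM) its log2 fold change was -0.25 ± 0.10 (SE, limma, adjusted p = 0.0745), and with Compound 1 (from 4.79 over 6.40 to 10.95 FPKM) it was -0.12 ± 0.11.

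Hmgcs1, cytosolic HMG-CoA synthase, ran from 6.35 over a median of 8.65 to 10.1 FPKM in Vehicle, from 5.09 over 6.46 to 8.59 FPKM with Enalapril, from 5.33 over 8.40 to 9.95 FPKM with Compound 1 and from 3.88 over 7.09 to 8.34 FPKM with the combination. No Enalapril animal and no combination animal reached the Vehicle median, although most lay within the Vehicle range. Hmgcs1 fell by 0.29 ± 0.10 with Enalapril (log2, SE, limma, adjusted p = 0.0295, lost in 5 of 20 fits that left out 1 animal) and by 0.31 ± 0.11 with the combination (adjusted p = 0.0229).

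Mvk, mevalonate kinase, ran from 4.07 over a median of 5.65 to 6.85 FPKM in Vehicle, from 3.98 over 4.39 to 4.72 FPKM with Enalapril, from 3.75 over 4.82 to 6.86 FPKM with Compound 1 and from 3.34 over 4.29 to 5.84 FPKM with the combination. The Enalapril animals lay close together, 2 of the 9 below every Vehicle animal and the rest in the lower part of the Vehicle range. Mvk fell by 0.27 ± 0.09 with Enalapril (log2, SE, limma, adjusted p = 0.0271) and by 0.25 ± 0.10 with the combination (adjusted p = 0.0491), the latter lost in 15 of 23 fits that left out 1 animal.

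Sqle, squalene epoxidase, ran from 5.29 over a median of 7.82 to 9.87 FPKM in Vehicle, from 5.65 over 6.23 to 7.51 FPKM with Enalapril, from 5.41 over 7.74 to 9.49 FPKM with Compound 1 and from 5.11 over 7.02 to 8.47 FPKM with the combination. All 9 Enalapril animals were below the Vehicle median and all were within the Vehicle range. Sqle fell by 0.25 ± 0.09 with Enalapril (log2, SE, limma, adjusted p = 0.032, lost in 7 of 20 fits that left out 1 animal), and with the combination its log2 fold change was -0.22 ± 0.10 (adjusted p = 0.0637).

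Fdps and Msmo1, a sterol C4-methyl oxidase, passed the test with the combination at small changes. Fdps ran from 45.1 over a median of 46.4 to 50.5 FPKM in Vehicle, from 41.2 over 44.9 to 46.8 FPKM with Enalapril, from 40.2 over 43.3 to 52.2 FPKM with Compound 1 and from 41.4 over 43.9 to 47.8 FPKM with the combination. Msmo1 ran from 16.9 over 19.7 to 22.2 FPKM in Vehicle, from 14.5 over 18.5 to 19.7 FPKM with Enalapril, from 16.4 over 20.1 to 24.8 FPKM with Compound 1 and from 16.8 over 17.4 to 20.5 FPKM with the combination. For both genes the combination overlapped Vehicle, although 7 of 12 animals of Fdps lay below every Vehicle animal. The log2 fold change was -0.09 ± 0.04 for Fdps (SE, limma, adjusted p = 0.0429) and -0.13 ± 0.05 for Msmo1 (SE, limma, adjusted p = 0.0288), both smaller than the shift of all tested genes, and both were above 0 after the scaling by median of ratios described later. Leaving out 1 animal at a time took the adjusted p of Fdps over 0.05 in 12 of 23 fits.

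The other enzymes of the branch, Acat2, Mvd, Idi1, Fdft1, Nsdhl and Sc5d, did not pass the adjusted p against Vehicle. Fdft1, squalene synthase, was at 22.2 ± 1.97 FPKM (SD) in Vehicle and at 24.3 ± 2.59 FPKM with the combination, a log2 fold change of 0.13 ± 0.06 (SE, limma, adjusted p = 0.0921). Hsd17b7, under the filter, was compared on FPKM by a two-sided permutation test. Its mean was 0.910 FPKM in Vehicle, 0.767 FPKM with Enalapril and 0.789 FPKM with the combination, while with Compound 1 it was 0.863 FPKM. The permutation p, adjusted over these 3 comparisons, was 0.29 with Enalapril (exact) and 0.29 with the combination, and 0.566 with Compound 1.

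**Figure D3:**
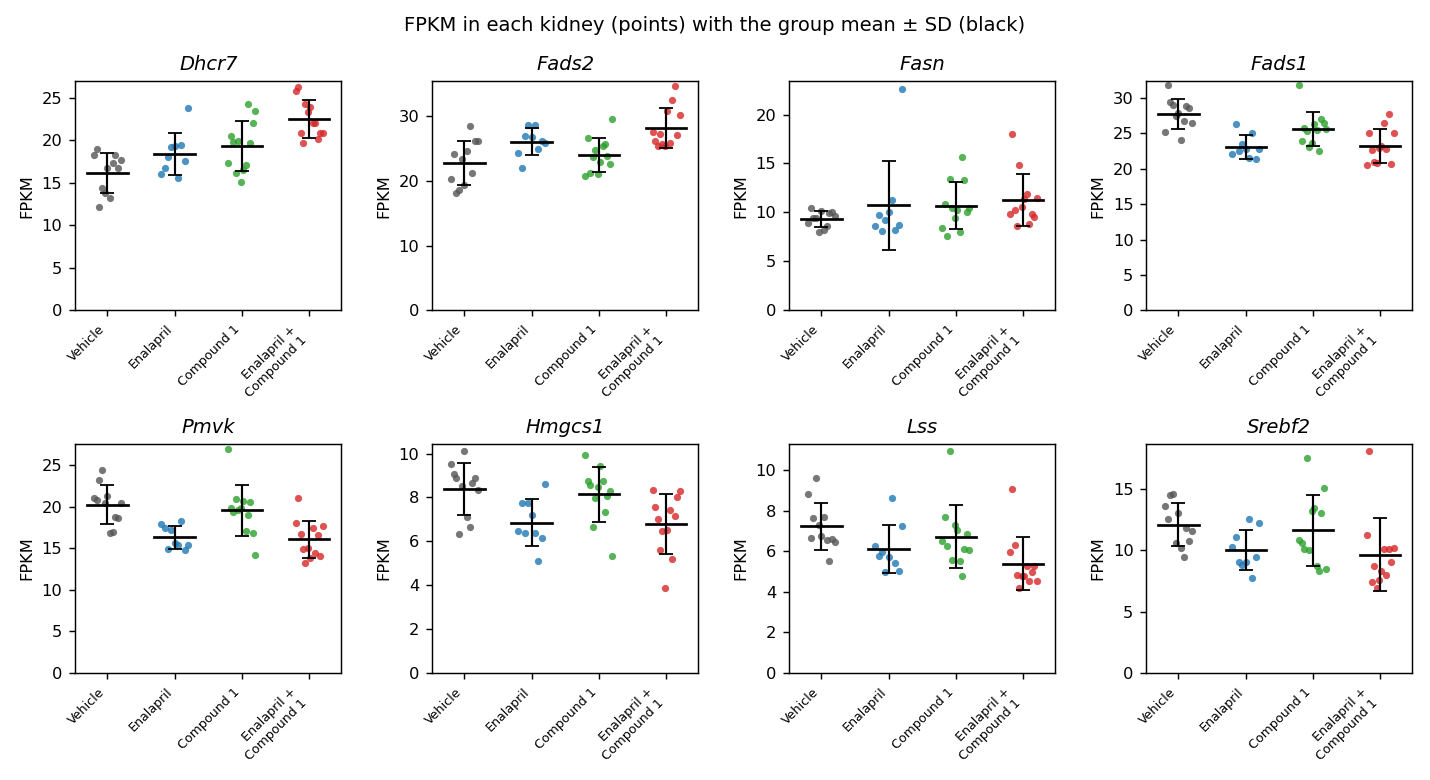
FPKM of 8 members in each animal (points) by treatment, with the group mean ± SD (black), on axes that start at 0. The combination animals of Dhcr7 all lie above the Vehicle animals, those of Fads2 all lie above the Vehicle median of 23.4 FPKM, those of Fads1 all lie below the Vehicle median of 27.9 FPKM, and 1 Enalapril animal stands apart in Fasn at 22.6 FPKM.

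Of the regulators, the genes of both SREBPs were lower with Enalapril and with the combination. Srebf2, which encodes the activator of sterol genes, ran from 9.49 over a median of 11.8 to 14.6 FPKM in Vehicle, from 7.76 over 9.47 to 12.5 FPKM with Enalapril, from 8.29 over 10.7 to 17.5 FPKM with Compound 1 and from 6.94 over 8.90 to 18.1 FPKM with the combination. The combination held 7 of 12 animals below every Vehicle animal and 1 above every Vehicle animal. Srebf2 fell by 0.27 ± 0.10 with Enalapril (log2, SE, limma, adjusted p = 0.0383, lost in 10 of 20 fits that left out 1 animal) and by 0.35 ± 0.12 with the combination (adjusted p = 0.0181).

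Srebf1, which encodes the activator of fatty acid genes, ran from 10.4 over a median of 11.5 to 14.8 FPKM in Vehicle, from 6.92 over 9.91 to 12.1 FPKM with Enalapril, from 7.97 over 10.6 to 13.4 FPKM with Compound 1 and from 7.63 over 10.2 to 12.7 FPKM with the combination. The treated animals lay partly within and partly below the Vehicle range, with 6 of 9 Enalapril animals and 6 of 12 combination animals below every Vehicle animal. Srebf1 fell by 0.29 ± 0.09 with Enalapril (log2, SE, limma, adjusted p = 0.018) and by 0.20 ± 0.08 with the combination (adjusted p = 0.0413), the latter lost in 13 of 23 fits that left out 1 animal. Insig1 and Insig2, which retain the SREBPs in the endoplasmic reticulum, and Stard4, a carrier of sterols between membranes, did not pass the test in any comparison, and the log2 fold changes of all 5 genes of this branch were below 0 with Enalapril and with the combination.

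In fatty acid synthesis, Fasn, fatty acid synthase, was higher with the combination. It ran from 8.03 over a median of 9.43 to 10.4 FPKM in Vehicle, from 8.13 over 9.26 to 22.6 FPKM with Enalapril, from 7.59 over 10.4 to 15.7 FPKM with Compound 1 and from 8.64 over 10.4 to 18.0 FPKM with the combination. Vehicle animals lay close together, 6 of 12 combination animals were above all of them, and 1 Enalapril animal stood far above the rest of its group. Fasn rose by 0.24 ± 0.10 on the log2 scale with the combination (SE, limma, adjusted p = 0.0411), a fold change of 1.18 with a 95% interval of 1.032 to 1.36. Without combination animal 4002, the highest, the log2 fold change was 0.18 (adjusted p = 0.0531), and leaving out any of 10 animals one at a time took the adjusted p over 0.05. It was also over 0.05 in 4 of 10 alternative ways of processing.

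Acaca, acetyl-CoA carboxylase 1, which commits acetyl-CoA to fatty acids, ran from 2.15 over a median of 2.78 to 3.52 FPKM in Vehicle, from 1.52 over 2.27 to 3.09 FPKM with Enalapril, from 1.83 over 2.61 to 3.48 FPKM with Compound 1 and from 2.01 over 2.42 to 3.69 FPKM with the combination. All but 1 of the Enalapril animals lay below the Vehicle median. Acaca fell by 0.34 ± 0.12 with Enalapril (log2, SE, limma, adjusted p = 0.0406, lost in 11 of 20 fits that left out 1 animal), and with the combination its log2 fold change was -0.16 ± 0.11 (adjusted p = 0.219). Acly, ATP citrate lyase, which supplies cytosolic acetyl-CoA, Acacb, acetyl-CoA carboxylase 2, and Me1, malic enzyme, which supplies NADPH, did not pass against Vehicle. Me1 was at 19.99 ± 4.24 FPKM (SD) in Vehicle and 23.1 ± 3.36 FPKM with the combination, a log2 fold change of 0.22 ± 0.11 (SE, limma, adjusted p = 0.1).

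The delta-5 and delta-6 desaturases act in the same route to long polyunsaturated fatty acids. With the combination they moved in opposite directions on FPKM as deposited, but the decrease of Fads1 did not pass after the scaling described later. Fads2, the delta-6 desaturase, ran from 18.2 over a median of 23.4 to 28.5 FPKM in Vehicle, from 22.1 over 26.2 to 28.7 FPKM with Enalapril, from 20.8 over 23.8 to 29.6 FPKM with Compound 1 and from 25.3 over 27.2 to 34.6 FPKM with the combination. All 12 combination animals and 8 of 9 Enalapril animals were above the Vehicle median, and 4 combination animals were above every Vehicle animal. Fads2 rose by 0.32 ± 0.08 with the combination (log2, SE, limma, adjusted p = 0.00218), a fold change of 1.24 with a 95% interval of 1.12 to 1.39, and with Enalapril its log2 fold change was 0.20 ± 0.08 (adjusted p = 0.0596).

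Fads1, the delta-5 desaturase, ran from 24.1 over a median of 27.9 to 31.8 FPKM in Vehicle, from 21.3 over 22.8 to 26.3 FPKM with Enalapril, from 22.6 over 25.5 to 31.8 FPKM with Compound 1 and from 20.6 over 22.9 to 27.8 FPKM with the combination. No Enalapril animal and no combination animal reached the Vehicle median, and 7 of 9 and 8 of 12 of them lay below every Vehicle animal. Fads1 fell by 0.26 ± 0.06 with Enalapril (log2, SE, limma, adjusted p = 0.00166) and by 0.26 ± 0.06 with the combination (adjusted p = 0.00118).

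The remaining members of this branch varied without passing a test. Scd ran from 0.339 over a median of 0.814 to 2.02 FPKM in Vehicle, from 0.122 over 0.361 to 1.70 FPKM with Enalapril, from 0.267 over 0.866 to 1.63 FPKM with Compound 1 and from 0.353 over 0.909 to 1.39 FPKM with the combination. Of the 9 Enalapril animals, 7 were below the Vehicle median, and the log2 fold change was -0.61 ± 0.37 (SE, limma, adjusted p = 0.21). Elovl6 reached 1.17 FPKM in Vehicle, 2.08 FPKM with Enalapril, 1.06 FPKM with Compound 1 and 1.41 FPKM with the combination, with medians of 0.337, 0.412, 0.272 and 0.511 FPKM. The 95% interval of its fold change ran from 0.6604 to 3.89 with Enalapril, so that these libraries set no narrow limit on its change. Elovl5, an elongase of polyunsaturated fatty acids, was among the most abundant members and its log2 fold change was -0.09 ± 0.10 with Enalapril and 0.01 ± 0.09 with the combination.

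Since the median of all genes lay below Vehicle, the fits were repeated after scaling each library by the median of its ratios to a common reference, which brings the median of all genes near 0. The decreases then became smaller and the increases larger. With Enalapril, 0 members were lower, where 9.66% of all tested genes were, and 4 were higher (Fdft1, Sc5d, Dhcr7 and Fads2), where 10.4% of all tested genes were. With the combination, Pmvk and Lss were lower, where 15.3% of all tested genes were lower. Fdft1, Dhcr7, Fasn, Me1 and Fads2 were higher, where 16.6% of all tested genes were higher. Dhcr7 rose by 0.66 ± 0.08 on this scale (log2, SE, limma, adjusted p = 5.36e-06), a 1.58-fold change, and was the 1 member called at the thresholds of the study, as were 2.5% of all tested genes in this direction. On this scale Fads2 rose by 0.49 ± 0.09 (log2, SE, limma, adjusted p = 0.00032), and Pmvk fell by 0.16 ± 0.06 (adjusted p = 0.0419). Dhcr7, Fads2 and Pmvk were past the adjusted p with the combination on both scales, in the same direction. The decreases of Hmgcs1, Mvk, Srebf1, Srebf2 and Fads1 with the combination passed on the deposited scale but not on this one, where Fads1, for example, was at -0.08 ± 0.06 (log2, SE, limma, adjusted p = 0.267).

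**Figure D4:**
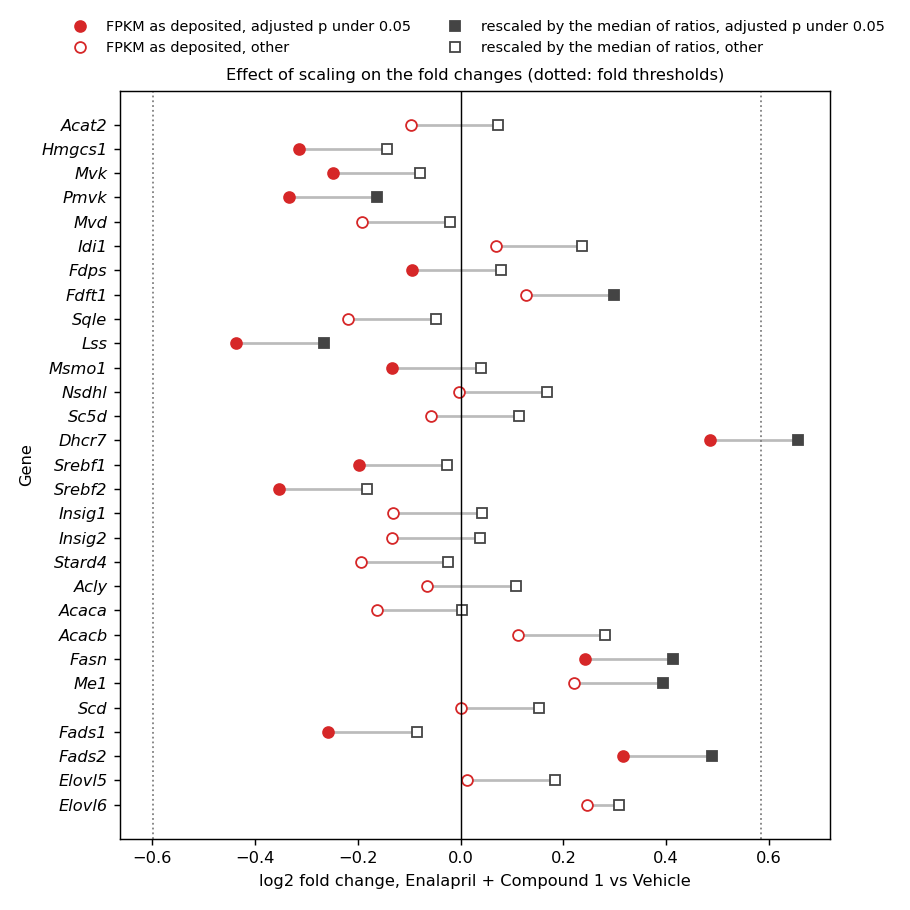
Log2 fold change of the 29 tested members with the combination, on FPKM as deposited (circles) and after median-of-ratios scaling (squares), with filled symbols for an adjusted p under 0.05 in limma and dotted lines at folds of 0.66 and 1.5. Scaling moves each member to the right, Dhcr7, at a fold of 1.58, passes the dotted line of 1.5, and Pmvk and Lss alone stay filled to the left of 0.

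The treatments were also compared with each other, from a fit of all 4 groups. Between the combination and Enalapril, 0 of 29 members passed the adjusted p in limma (0.0519% of all tested genes did, 0.00742% with the fold threshold), and 1 passed an unadjusted p of 0.05, where 10.4% of all tested genes did. That member was Dhcr7, with a log2 fold change of 0.29 ± 0.08 (SE, limma, adjusted p = 0.174). Between the combination and Compound 1, which differ in Enalapril and in the dose of Compound 1, 0 members were called with the fold threshold (2.33% of all tested genes were), and 11 passed an unadjusted p of 0.05, where 36.3% of all tested genes did. At the adjusted p alone, Dhcr7 (0.23 ± 0.08, adjusted p = 0.03) and Fads2 (0.23 ± 0.07, adjusted p = 0.0139) were higher on the log2 scale in limma, among 4.72% of all tested genes. Pmvk (-0.28 ± 0.07, adjusted p = 0.00719) and Lss (-0.32 ± 0.11, adjusted p = 0.0305) were lower on the log2 scale in limma, among 17.4% of all tested genes. With the mean of the inner medulla markers as a covariate, 0 members passed the adjusted p between the combination and Compound 1. Of all 13482 tested genes, 106 then did. Between Enalapril and Compound 1, 0 members were called (2.22% of all tested genes were), 7 passed an unadjusted p of 0.05 where 27.5% of all tested genes did, and Pmvk alone passed the adjusted p, lower with Enalapril at -0.25 ± 0.08 (log2, SE, limma, adjusted p = 0.0318), where 10.9% of all tested genes were lower and 2.6% higher. The interaction contrast sets the effect of the combination against the sum of the single effects on the log2 scale. Compound 1 ended at 3 mg/kg/day alone but at 1 mg/kg/day in the combination, so the contrast cannot separate interaction from dose. It passed for 0 members in limma (0.00742% of all tested genes). For 1, Srebf1, the unadjusted p was under 0.05, as for 4.29% of all tested genes, with a log2 interaction of 0.25 ± 0.12 (adjusted p = 0.986). For Dhcr7 this contrast was 0.04 ± 0.12 on the log2 scale (SE, limma, adjusted p = 0.992), and with unequal doses it does not test additivity.

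How the members varied together between animals was examined after removing the group means, over all 44 animals, for Hmgcs1 on the sterol side and Fasn on the fatty acid side, 55 relations in all. A shared shift of a library moves all its genes, and the median Pearson r of Hmgcs1 with the other 13453 genes was 0.29, with a 95th percentile of 0.63. Of the 8 relations that passed, Insig1 alone lay above that percentile. In all, 8 of 28 relations of Hmgcs1 passed an adjusted permutation p of 0.05, all positive. The median r of these 28 was 0.24, below that of the other genes, which were not put to the permutation test. Hmgcs1 went with Insig1, a target and brake of the SREBPs (r = 0.64, rho = 0.61, adjusted permutation p = 0.00037 and 0.0013, and r = 0.58 without the 2 animals farthest from the median of Hmgcs1), with Sc5d, lathosterol oxidase (r = 0.61, rho = 0.55, adjusted permutation p = 0.0022 and 0.0035, r = 0.43 without 2 animals), with Elovl5 (r = 0.58, rho = 0.45, adjusted permutation p = 0.0022 and 0.019, r = 0.50 without 2 animals) and with Idi1 (r = 0.55, rho = 0.61, adjusted permutation p = 0.00027 and 0.00055, r = 0.56 without 2 animals). After median-of-ratios scaling, 2 relations of Hmgcs1 passed, of which Idi1 was positive (r = 0.49) and Fdps negative (r = -0.54). Insig1 did not pass there (r = 0.33, adjusted permutation p = 0.19).

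Of 27 relations of Fasn, 4 passed, and the strongest was with Acly (r = 0.70, rho = 0.61, adjusted permutation p = 0.00027 and 0.00055, and r = 0.58 without the 2 animals farthest from the median of Fasn). The others were Dhcr7 (r = 0.47, rho = 0.40, adjusted permutation p = 0.01 and 0.04, r = 0.31 without 2 animals), Acaca (r = 0.47, rho = 0.52, adjusted permutation p = 0.022 and 0.0046, r = 0.46 without 2 animals) and Acacb (r = 0.40, rho = 0.27, adjusted permutation p = 0.047 and 0.24, r = 0.23 without 2 animals). Me1, of the same branch, had r = -0.17 (rho = -0.21, adjusted permutation p = 0.44 and 0.33). The median r of Fasn with the other 13453 genes was 0.14, with a 95th percentile of 0.42, above which lay Acly, Dhcr7 and Acaca but not Acacb. Over the 27 relations with members the median r was 0.08, below that of the other genes. After median-of-ratios scaling, Acly (r = 0.67) and Dhcr7 (r = 0.45) passed, and without the 6 animals listed apart, Acly (r = 0.60) and Acaca (r = 0.57) passed while Dhcr7 did not (r = 0.41, adjusted permutation p = 0.062). These 6 animals stand after all others in the series: 2005, 2011 and 2012 of Enalapril, 3103 and 3011 of Compound 1, and 4005 of the combination. None is of Vehicle, and the labels do not say what sets them apart. In the comparisons with Vehicle, it therefore cannot be separated from treatment. The relation with Acacb did not pass by rho and fell without 2 animals, so it rests on few animals.

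Among other genes of these pathways, 1 was called against Vehicle. Acss2, cytosolic acetyl-CoA synthetase, which makes acetyl-CoA from acetate for lipid synthesis, ran from 49.0 over a median of 86.2 to 103 FPKM in Vehicle, from 98.9 over 117 to 149 FPKM with Enalapril, from 57.2 over 108 to 143 FPKM with Compound 1 and from 107 over 135 to 159 FPKM with the combination. All combination animals were above all Vehicle animals, as for Dhcr7, and how often this occurs among all tested genes was not counted. Acss2 rose by 0.72 ± 0.11 with the combination (log2, SE, limma, adjusted p = 3.26e-05), a fold change of 1.64. It belonged to a list of 33 genes of fatty acid and glycerolipid synthesis, of which 28 were tested, 3 were higher and 6 lower at the adjusted p with the combination, and the median log2 fold change was -0.04. After median-of-ratios scaling, 8 of the 28 were higher and 1 lower. Of 19 tested genes of the remaining sterol pathway and its regulators, 0 were higher and 8 lower at the adjusted p with the combination, with a median of -0.14, and with Enalapril the counts were 0 and 8. After scaling, 5 were higher and 3 lower with the combination, and 2 and 2 with Enalapril. Of 14 tested genes of sterol efflux and storage, 0 were higher and 8 lower with the combination (median -0.23), and 0 and 7 with Enalapril. After scaling, 3 were higher and 4 lower with the combination, and 1 and 2 with Enalapril. These counts stand beside 39.3% of all tested genes lower and 6.38% higher with the combination and 26.6% and 3.57% with Enalapril, and after scaling beside 15.3% and 16.6% with the combination and 9.66% and 10.4% with Enalapril. With Compound 1, 0 genes of the 3 lists passed. Scd2, a second stearoyl-CoA desaturase, was at 23.5 ± 4.35 FPKM (SD, n = 11) in Vehicle, 15.7 ± 2.08 FPKM (n = 9) with Enalapril, 25.3 ± 4.89 FPKM (n = 12) with Compound 1 and 19.2 ± 2.70 FPKM (n = 12) with the combination. All 9 Enalapril animals were below every Vehicle animal, again without a count over all tested genes. The log2 fold change of Scd2 from Vehicle was -0.57 ± 0.09 (SE, limma, adjusted p = 0.00028), a fold just short of the threshold. Scd2 was called lower with Enalapril than with Compound 1, at -0.67 ± 0.10 on the log2 scale (SE, limma, adjusted p = 2.81e-05).

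Markers of some cell types moved with the same groups, and those of others did not. The summed FPKM of 8 proximal tubule markers had medians of 2417 in Vehicle, 2794 under Enalapril, 2346 under Compound 1 and 2910 under both drugs, with ranges of 1601 to 2670, 2462 to 3181, 1253 to 2788 and 2342 to 3198, and 5 of 8 with Enalapril and 6 of 8 with the combination were higher at the adjusted p. The sum of 5 macrophage markers had medians of 209, 155, 204 and 141 FPKM in the same order, and 4 of 5 were lower with Enalapril and with the combination. Cd163, of this list, averaged 0.719, 0.676, 1.44 and 0.746 FPKM in that order. The sum of 4 inner medulla markers had medians of 73.6, 56.5, 76.3 and 60.2 FPKM. Most of that sum was Akr1b1, which averaged 61.2, 48.6, 63.6 and 57.3 FPKM, while Aqp4 averaged 4.29, 3.61, 5.68 and 4.10 FPKM. Slc14a2 averaged 7.50, 5.55, 6.36 and 5.63 FPKM, and Slc6a12 averaged 3.63, 3.37, 3.94 and 3.27 FPKM. The part of these shifts in the levels of the members was not tested. The inner medulla covariate was the mean of the log2 values of these 4 markers, each with the same weight, not their sum. With it, 1 member with Enalapril and 4 with the combination were lower at the adjusted p, while 0 with Enalapril and 3 with the combination were higher. Of all 13482 tested genes, 527 with Enalapril and 3662 with the combination were then lower, and 27 and 554 were higher. The sum of 7 adipocyte markers had medians of 54.3, 56.5, 55.3 and 55.9 FPKM, with ranges of 41.4 to 68.4, 45.1 to 67.6, 48.3 to 72.0 and 50.3 to 65.7 FPKM. The adipocyte genes Lep, Plin4 and Retn were at 1.16 FPKM or less in every animal and Plin1 at 3.12 FPKM or less, whereas Cidec, a lipid droplet protein of the same list, was at 16.4 FPKM on average in Vehicle and 24.3 FPKM with the combination and was called higher (log2 0.59 ± 0.09, SE, limma, adjusted p = 5.84e-05). Adipoq, which encodes adiponectin, was at 8.78 FPKM on average in Vehicle, 6.68 FPKM with Enalapril, 8.70 FPKM with Compound 1 and 7.09 FPKM with the combination, and was lower with Enalapril (log2 -0.40 ± 0.11, SE, limma, adjusted p = 0.00874) and with the combination (log2 -0.31 ± 0.10, adjusted p = 0.0116). Fabp4, a fatty acid binding protein, was at 28.1 FPKM in Vehicle and 24.9 FPKM with the combination (log2 -0.17 ± 0.13, SE, limma, adjusted p = 0.27). The sum of 4 adrenal cortex markers was at 3.21 FPKM or less in every animal.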

How the data were processed

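Kidney RNA of 44 obese ZSF1 rats, 1 library per animal, was sequenced from a stranded mRNA kit. The authors deposited FPKM (fragments scaled to transcript length and library size) per gene on the rn6 build named in the labels. For the aligner and counter, nothing is given in the sources used. The authors tested raw counts with DESeq2, and those counts were not used here. FPKM give no read totals, so the depth per library is unknown and no counting error is given. Empty columns (2) were left out.

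Groups came from the labels, which number single animals. A gene was kept if its FPKM exceeded 1 in 9 or more animals (13482 of 32883 entries), and for a repeated symbol the entry of highest mean was used. Values were analysed as log2(FPKM + 0.1) in limma 3.58.1 (R 4.3.3) with a mean-variance trend. Fold changes on this scale understate changes of low genes. Each treatment was fitted with Vehicle alone, and the other contrasts used all 4 groups together. The p-values were adjusted by Benjamini-Hochberg over all tested genes. As in the study, a call needed an adjusted p under 0.05 and a fold outside 0.66 to 1.5. The fit was tested on simulated data. Relations between members were tested by 100000 permutations of animals within groups, two-sided, on values centred by group, with adjustment over all 55 relations (Python 3.11.15, scipy 1.17.1).

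The members and gene lists were chosen with earlier results of these data known. Values are given for members with an adjusted p under 0.05 in any contrast, for the 2 highest and 2 lowest in Vehicle, and for Hsd17b7, which was under the filter. Fdft1, Me1, Elovl5 and Idi1 were named after their values were seen. Alternatives covered the pseudocount (1 and 0.01), the filter (none, and FPKM above 5), scaling (median of ratios, quantile), sample weights, the inner medulla markers as a covariate, animals left out, and 1 fit of all groups. Promoter windows came from RefSeq (GRCr8), a different build from that of the FPKM, and were matched by symbol.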

Additional observations from a re-analysis of the deposited data

Results flagged for a closer look

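Only the Enalapril group, with 9 animals, was of a size at which a single animal far from the others was looked for, in each of the 30 members. An animal stood apart by Dixon's criterion in 4 of the 30. Chance gives about 1 in 20 for a single gene of normal spread. The members vary together and several of the flags fell on the same animal, so the count cannot be set against that rate.

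Enalapril animal 2012 was far above the others in 3 of these genes. Its level of Fasn, fatty acid synthase, was 22.6 FPKM, where the other animals of the group lay between 8.13 and 11.2 FPKM. Its level of Acly, ATP citrate lyase, was 35.4 FPKM, where the others lay between 20.2 and 27.6 FPKM. Its level of Dhcr7, 7-dehydrocholesterol reductase, was 23.8 FPKM, where the others lay between 15.6 and 19.4 FPKM. This animal is 1 of 6 that the series lists apart from the others. Enalapril animal 2010 was far below the others in Me1, malic enzyme, at 12.3 FPKM, where the others lay between 20.2 and 25.0 FPKM.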

How the results depend on the processing

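With the combination, Dhcr7 and Fads2 were higher and Pmvk was lower at the adjusted p under all 10 alternatives run for this comparison and in all 23 fits that left out 1 animal. Lss held in 9 of 10 alternatives (not with quantile normalization), and Hmgcs1 and Fads1 in 8 of 10 (not with either rescaling). Fasn held in 6 of 10, not without the filter, with sample weights, without the 6 animals listed apart or in the fit of all groups. Fdps and Srebf2 held in 7, Msmo1 and Srebf1 in 5 and Mvk in 4. With no fold threshold, 8 members were called with Enalapril, 12 with the combination, 4 between the combination and Compound 1 and 1 between Enalapril and Compound 1. With the combination, 1 member was called with median-of-ratios scaling and 1 with quantile normalization, where 648 and 547 of all tested genes were.

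Counts at the adjusted p moved as follows. With Enalapril, the higher count of 0 became 4 with median-of-ratios scaling, 3 with quantile normalization, 1 without animals 2103 and 3102 to 3105 (numbered apart from the others of their groups, with no reason in the labels) and 1 in the fit of all 4 groups. The lower count of 8 became 0 with both rescalings, 1 with the inner medulla covariate and 4 without the 6 animals listed apart. Over all tested genes, the higher count of 481 became 1403 with median-of-ratios scaling and 1187 with quantile normalization. It became 499 without animals 2103 and 3102 to 3105 and 513 in the fit of all 4 groups. The lower count of 3590 became 1302 and 1328 with these, 527 with the covariate and 2913 without the 6 animals. With Compound 1, the covariate gave 1 higher and 1 lower, and 102 higher and 1263 lower over all tested genes. With the combination, the higher count of 3 became 5 with median-of-ratios scaling and 6 with quantile normalization, and the lower count of 9 became 2, 1 and, with the covariate, 4. Over all tested genes, the higher count of 860 became 2236 and 1975 in the same order. The lower count of 5293 became 2058, 2026 and, with the covariate, 3662. Between the combination and Compound 1, the higher count of 2 became 0 with the covariate and 1 without animals 2103 and 3102 to 3105, and the lower count of 2 became 1 with both rescalings and without those animals, 8 with sample weights, 0 with the covariate and 4 without the 6 animals. Over all tested genes, the higher count of 637 became 26 with the covariate and 543 without animals 2103 and 3102 to 3105. The lower count of 2352 became 1274 with median-of-ratios scaling, 1314 with quantile normalization and 1526 without animals 2103 and 3102 to 3105. It became 4549 with sample weights, 80 with the covariate and 2846 without the 6 animals. Between Enalapril and Compound 1, the higher count of 0 became 1 with both rescalings, and the lower count of 1 became 0 with both rescalings, the covariate and without animals 2103 and 3102 to 3105, and 5 with sample weights. Over all tested genes, the higher count of 351 became 799 with median-of-ratios scaling and 811 with quantile normalization. The lower count of 1471 became 1027 and 1125 with these, 44 with the covariate and 2590 with sample weights. It became 1252 without animals 2103 and 3102 to 3105. The relations of Hmgcs1 that passed went from 8 to 2 after scaling and 5 without the 6 animals, and those of Fasn from 4 to 2 and 2. With the combination, Fdps turned to 0.0783 and Msmo1 to 0.0392 on the log2 scale with median-of-ratios scaling, and Msmo1 to 0.0177 with quantile normalization. The causes were not tested.

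Leaving out 1 animal at a time gave 0 to 1 higher and 3 to 9 lower members with Enalapril (3 without Vehicle animal 1003), 2 to 4 higher and 6 to 11 lower with the combination, 1 to 2 higher and 1 to 6 lower between the combination and Compound 1 (6 without combination animal 4002), and 0 to 3 lower with 0 to 1 called between Enalapril and Compound 1 (1 called without 2103, 2012 or 3011). At the adjusted p, Mvk with the combination was lost in 15 of 23 such fits, Srebf1 in 13, Fdps in 12, Fasn in 10 and Msmo1 in 1 (without Vehicle animal 1006). With Enalapril, Acaca was lost in 11 of 20, Srebf2 in 10, Sqle in 7, Hmgcs1 in 5 and Mvk in 2 (without Vehicle animal 1002 or 1003). The alternative without animals 2103 and 3102 to 3105 gives no value for the combination against Vehicle, which holds none of them. No paired analysis was possible because the animal numbers in the labels are not shared between groups. FPKM carry no depth, so what depth limits could not be measured, and low members such as Elovl6 and Scd vary most.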

Other observations

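Single animals held the extreme values of several members at once. In the combination group, animal 4002 was the highest in Dhcr7 (26.3 FPKM), Pmvk (21.0 FPKM), Mvd (10.1 FPKM), Lss (9.07 FPKM), Hsd17b7 (1.22 FPKM), Srebf2 (18.1 FPKM), Acaca (3.69 FPKM), Acacb (14.0 FPKM) and Fasn (18.0 FPKM). Animal 4002 was also the lowest of that group in Nsdhl (6.73 FPKM). In Vehicle, animal 1004 was the lowest in Acat2 (4.09 FPKM), Hmgcs1 (6.35 FPKM), Idi1 (0.867 FPKM), Sqle (5.29 FPKM), Nsdhl (5.56 FPKM), Sc5d (10.1 FPKM), Insig1 (10.3 FPKM), Insig2 (7.27 FPKM), Me1 (12.1 FPKM) and Elovl5 (17.7 FPKM). The same Vehicle animal was the highest of its group in Pmvk (24.4 FPKM), Fdps (50.5 FPKM), Lss (9.59 FPKM), Hsd17b7 (1.38 FPKM), Srebf1 (14.8 FPKM), Srebf2 (14.6 FPKM), Acacb (9.88 FPKM) and Scd (2.02 FPKM). Its summed inner medulla markers, at 129 FPKM, were the highest of the Vehicle animals, and most of that sum was Akr1b1 (110 FPKM). Slc14a2 and Slc6a12 were also highest in this animal, but Aqp4, of the same list, was at its Vehicle lowest there (2.55 FPKM). How often animals 4002 and 1004 hold the extremes over all tested genes was not counted.

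The podocyte markers, 3 in all, summed to a median of 88.0 FPKM in Vehicle, 102 FPKM with Enalapril, 87.2 FPKM with Compound 1 and 98.8 FPKM with the combination. The collecting duct markers, 4 in all, summed to medians of 195, 182, 194 and 196 FPKM in the same order, and 3 thick ascending limb or distal tubule markers to 1288, 1293, 1516 and 1562 FPKM.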
